A study of Ovis aries with 9 samples.

Results

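HOX genes were followed in the longissimus dorsi, the long muscle that runs along the back beside the spine, of fetal sheep of the Chinese merino breed, sampled on days 85, 105 and 135 of pregnancy (called D85, D105 and D135). They were found by name, as loci whose gene name held HOX, a cluster letter A to D and a number, and 33 of the 22605 loci of the expression table matched. These carried 32 HOX names. One name, HOXC9, had a pair of loci, of which the locus with the higher mean was kept. RNA sequencing values were FPKM, which divide fragments by the length of the transcript and the size of the library, with 3 libraries per day. All fetuses were of the same breed and no treatment is named. Whether each library stands for its own fetus is not stated, so p-values speak only of differences between libraries, and the spread behind them may be technical. The labels also give the muscle without a level along the back.

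HOX genes encode homeodomain transcription factors and lie side by side in clusters called A, B, C and D. Their paralog number gives their place in the cluster, and genes of a low number are first switched on early and near the head, those of a high number later and near the tail. In the mouse, groups at the high end set lumbar and sacral vertebrae and the limbs. After the embryo is formed, muscle stem cells and connective tissue fibroblasts keep part of this positional pattern, and HOX proteins bind DNA together with PBX and MEIS homeodomain partners.

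The libraries carried skeletal muscle markers, and D105 replicate 2 stood apart from the others in its connective tissue markers. The summed level of 11 skeletal muscle markers was 7034 to 9441 FPKM at D85, 8564 to 11638 FPKM at D105 and 16455 to 19983 FPKM at D135. The 15 fibroblast markers summed to 7050 FPKM in D105 replicate 2 and to 1551 to 3476 FPKM in the other libraries. Collagen genes made up much of that sum, with COL1A2 at 2670 FPKM and COL1A1 at 1889 FPKM in D105 replicate 2. Single markers did not all stand apart, since PDGFRA had 29.5 FPKM in D105 replicate 2 and 26.2 and 22.4 FPKM in D105 replicates 1 and 3. Adipocyte markers summed to 115 FPKM in D105 replicate 2, against 2.93 to 73.6 FPKM in the other libraries. In that library 8 tendon markers summed to 503 FPKM and 12 cartilage and bone markers to 183 FPKM, against at most 274 and 56.1 FPKM elsewhere. Of 8 neuron markers the sum was 2.55 to 4.04 FPKM at D85, 1.89 to 2.59 FPKM at D105 and 0.358 to 0.687 FPKM at D135, with ELAVL3 and ELAVL4 under 0.1 FPKM in every library. No counts were given, so depth is unknown, and totals were 395797 to 489270 FPKM per library.

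HOX levels were low, and the genes at 1 FPKM or more on average belonged to paralog numbers 1 to 10. By the mean of the day, 16 of 32 HOX genes were at 1 FPKM or more at D85, 16 at D105 and 10 at D135. In single libraries the number was 14 to 17 at D85, 15 to 17 at D105 and 7 to 11 at D135. On every day 9 genes were at 1 FPKM or more: HOXA3, HOXD3, HOXA4, HOXA5, HOXB6, HOXC6, HOXC8, HOXD8 and HOXD9. HOXA3, HOXA4, HOXB6, HOXC8 and HOXD9 were so in each of the 9 libraries. HOXB2, HOXB3, HOXC4, HOXA9 and HOXC10 were among the genes at 1 FPKM or more at D85 and D105 and below it at D135. HOXA2 was above it at D105 alone, and the kept HOXC9 locus at D85 and D135.

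**Figure D1:**
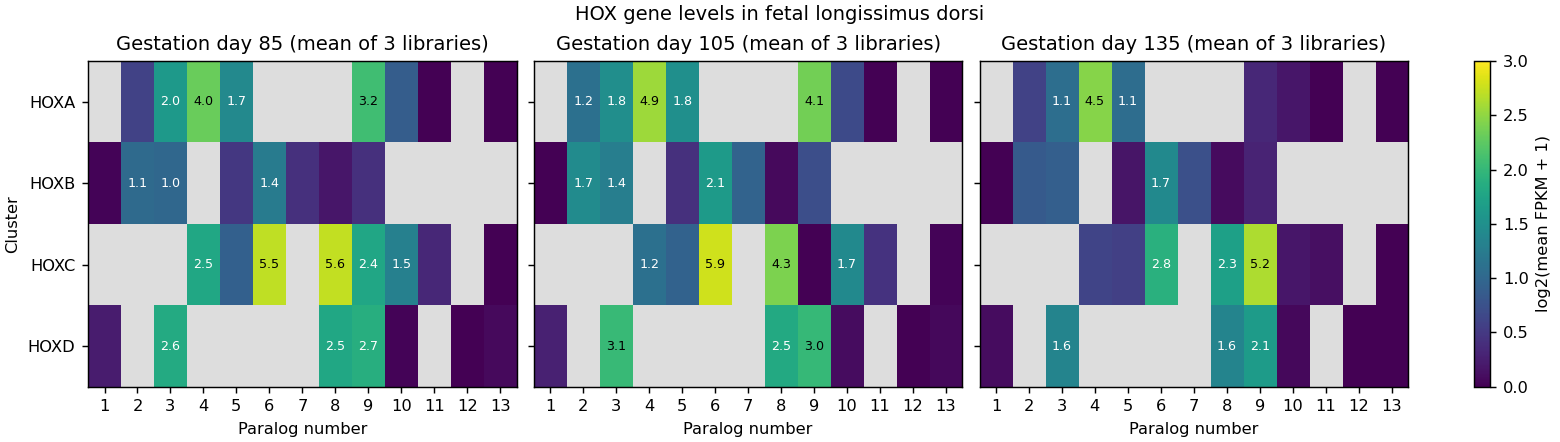
Mean level of each HOX gene on each gestation day, with cluster on the vertical axis, paralog number on the horizontal axis and colour giving log2(mean FPKM + 1). Means of 1 FPKM or more are printed in the cells, and grey cells hold no value reported here. The printed cells end at paralog number 10 at D85 and D105 and at paralog number 9 at D135.

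Close to the threshold, HOXB3 and HOXB2 were at 1.01 and 1.05 FPKM at D85, while HOXC5 and HOXA10 were at 0.887 and 0.848 FPKM. At D105 HOXA2 and HOXC4 were just above it with 1.16 FPKM each, and HOXB7 and HOXC5 just below it with 0.945 and 0.922 FPKM. At D135 HOXA5 and HOXA3 were at 1.10 and 1.12 FPKM, and HOXB3 was below it at 0.876 FPKM. With all libraries divided by median-of-ratios size factors, the counts were 14, 16 and 12 at D85, D105 and D135. With 2 FPKM as the threshold they were 10, 8 and 5.

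The other 15 HOX genes were under 1 FPKM on every day, and 12 of these were under it in every library. Paralog numbers 11 to 13, which in the mouse act at sacral, tail and distal limb levels, were at the bottom: the highest value of the 6 genes was 0.633 FPKM, for HOXC11 in D105 replicate 1. HOXA11 was listed at 0 in all 9 libraries. HOXB1, HOXD10, HOXD12, HOXA13, HOXC13 and HOXD13 stayed under 0.1 FPKM. Low members were not only posterior, since HOXB1 is a gene of the hindbrain and HOXD1 had at most 0.349 FPKM. Of cluster B, 3 of 8 genes reached 1 FPKM on at least 1 day, and of clusters A, C and D 6 of 9, 5 of 8 and 3 of 7. A further 7 HOX symbols of the RefSeq table for the ARS-UI_Ramb_v3.0 assembly (HOXA6, HOXA7, HOXB4, HOXB13, HOXC12, HOXD4 and HOXD11) matched no locus by name and were not analysed as genes of their own. HOXA7 is part of the joined HOXA3 locus described below, so its reads enter the values of that locus. HOXD11, found by its identifier only, had 0.0173 FPKM in D135 replicate 3 and was listed at 0 in every other library. By RefSeq, 8 of the HOX genes measured (HOXA3, HOXA4, HOXA5, HOXB3, HOXB7, HOXB8, HOXB9 and HOXD10) overlap another HOX gene, and whether counting used strand is not given in the sources used here, so their values may hold a neighbour's reads. HOXC4 has no symbol of its own in the RefSeq table, so its overlap with other HOX genes could not be checked.

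Among paralog numbers 1 to 3, which pattern the hindbrain, pharyngeal arches and neck, levels were between 0.444 and 3.68 FPKM in the genes that reached the threshold. HOXA2, which sets the identity of the second pharyngeal arch, had 0.530, 0.555 and 0.444 FPKM in D85 replicates 1, 2 and 3, 1.16, 0.999 and 1.31 FPKM at D105, and 0.454, 0.577 and 0.492 FPKM at D135. Its 3 D105 libraries were all above the 6 others. It was not among the loci tested, which needed 1 FPKM in at least 3 libraries.

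HOXB2, a hindbrain gene, showed the same order, with D105 above both other days. It had 1.17, 1.31 and 0.676 FPKM at D85, 1.80, 1.70 and 1.67 FPKM at D105, and 0.964, 0.792 and 0.647 FPKM at D135. HOXB3 had 1.07, 1.15 and 0.810 FPKM at D85, 1.42, 1.58 and 1.32 FPKM at D105, and 0.818, 1.04 and 0.776 FPKM at D135. For both genes the D105 libraries overlapped neither other day.

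The HOXA3 locus, of a gene needed for the thymus and parathyroid in the mouse, is joined with LOC105606599, which the RefSeq table names HOXA7, so its reads cannot be divided between them. It had 1.64, 2.91 and 1.59 FPKM at D85, 1.88, 1.59 and 1.89 FPKM at D105, and 1.18, 1.04 and 1.15 FPKM at D135. The D135 libraries lay below all the others. HOXD3, which shapes the upper neck vertebrae in the mouse, had 2.15, 3.53 and 1.998 FPKM at D85, 3.58, 1.90 and 3.68 FPKM at D105, and 0.857, 1.62 and 2.17 FPKM at D135. Its days overlapped.

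Paralog numbers 4 to 8, which act from the lower neck to the chest, held HOXA4, HOXC6 and HOXC8, the genes with the highest mean over all libraries. HOXA4, a gene of the neck vertebrae, had 4.13, 4.10 and 3.72 FPKM at D85, 4.43, 4.60 and 5.73 FPKM at D105, and 4.52, 4.43 and 4.49 FPKM at D135. HOXC4, its paralog in cluster C, had 1.95, 3.11 and 2.30 FPKM at D85, 1.55, 0.718 and 1.21 FPKM at D105, and 0.774, 0.453 and 0.355 FPKM at D135. The paralogs thus differed in course: HOXC4 libraries of D135 lay below all D85 libraries, those of HOXA4 above them.

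HOXC8, which patterns the chest skeleton and brachial motor neurons in the mouse, separated the 3 days without overlap. It had 5.33, 6.51 and 5.06 FPKM at D85, 4.24, 4.40 and 4.25 FPKM at D105, and 2.46, 2.91 and 1.44 FPKM at D135. HOXC6, which specifies motor neurons at forelimb level in the mouse, varied widely between libraries of D85 and D135. It had 1.53, 9.51 and 5.59 FPKM at D85, 5.97, 5.77 and 5.88 FPKM at D105, and 3.56, 4.48 and 0.210 FPKM at D135. The single libraries D85 replicate 1 and D135 replicate 3 were low for HOXC6 within their day.

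HOXA5, a gene of the lower neck and the lung, had 1.17, 2.51 and 1.32 FPKM at D85, 1.65, 1.43 and 2.40 FPKM at D105, and 0.951, 1.30 and 1.04 FPKM at D135. HOXB6 had 1.49, 1.61 and 1.03 FPKM at D85, 1.93, 1.99 and 2.41 FPKM at D105, and 1.85, 1.32 and 1.88 FPKM at D135. For both, D135 lay below D105 and overlapped D85. HOXD8 had 2.94, 3.25 and 1.19 FPKM at D85, 5.49, 0.402 and 1.70 FPKM at D105, and 0.714, 2.76 and 1.21 FPKM at D135. Its highest and lowest values, 5.49 and 0.402 FPKM, were both at D105, the lower in replicate 2.

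Paralog numbers 9 and 10, genes of the chest, loin and limbs, held both the steepest course and a gene whose days overlapped throughout. HOXA9 had 1.44, 5.22 and 2.99 FPKM at D85, 3.79, 2.91 and 5.75 FPKM at D105, and 0.0705, 0.501 and 0.206 FPKM at D135. HOXC10, which marks lumbar motor neurons in the mouse, had 0.550, 2.59 and 1.27 FPKM at D85 and 2.12, 1.12 and 1.78 FPKM at D105, and at D135 it was listed at 0 in replicate 1, with 0.400 and 0.00859 FPKM in replicates 2 and 3. For both genes every D135 library lay below every other library. HOXD9 had 1.78, 3.42 and 2.86 FPKM at D85, 3.69, 1.88 and 3.47 FPKM at D105, and 1.02, 2.91 and 2.48 FPKM at D135, with all days overlapping.

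HOXC9, a determinant of thoracic motor neurons in the mouse, could not be read as a single gene. The kept locus holds no reference transcript and was listed at 0 in 5 libraries: D85 replicate 2, every D105 library and D135 replicate 1. Its other values were 1.97 and 5.34 FPKM in D85 replicates 1 and 3 and 8.75 and 6.77 FPKM in D135 replicates 2 and 3. The other locus, with the reference transcript, had 4.45, 1.91 and 1.17 FPKM at D85, 0.543, 2.38 and 0.922 FPKM at D105, and 1.59, 3.98 and 1.91 FPKM at D135. That locus was at 1 FPKM or more on every day by its mean.

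**Figure D2:**
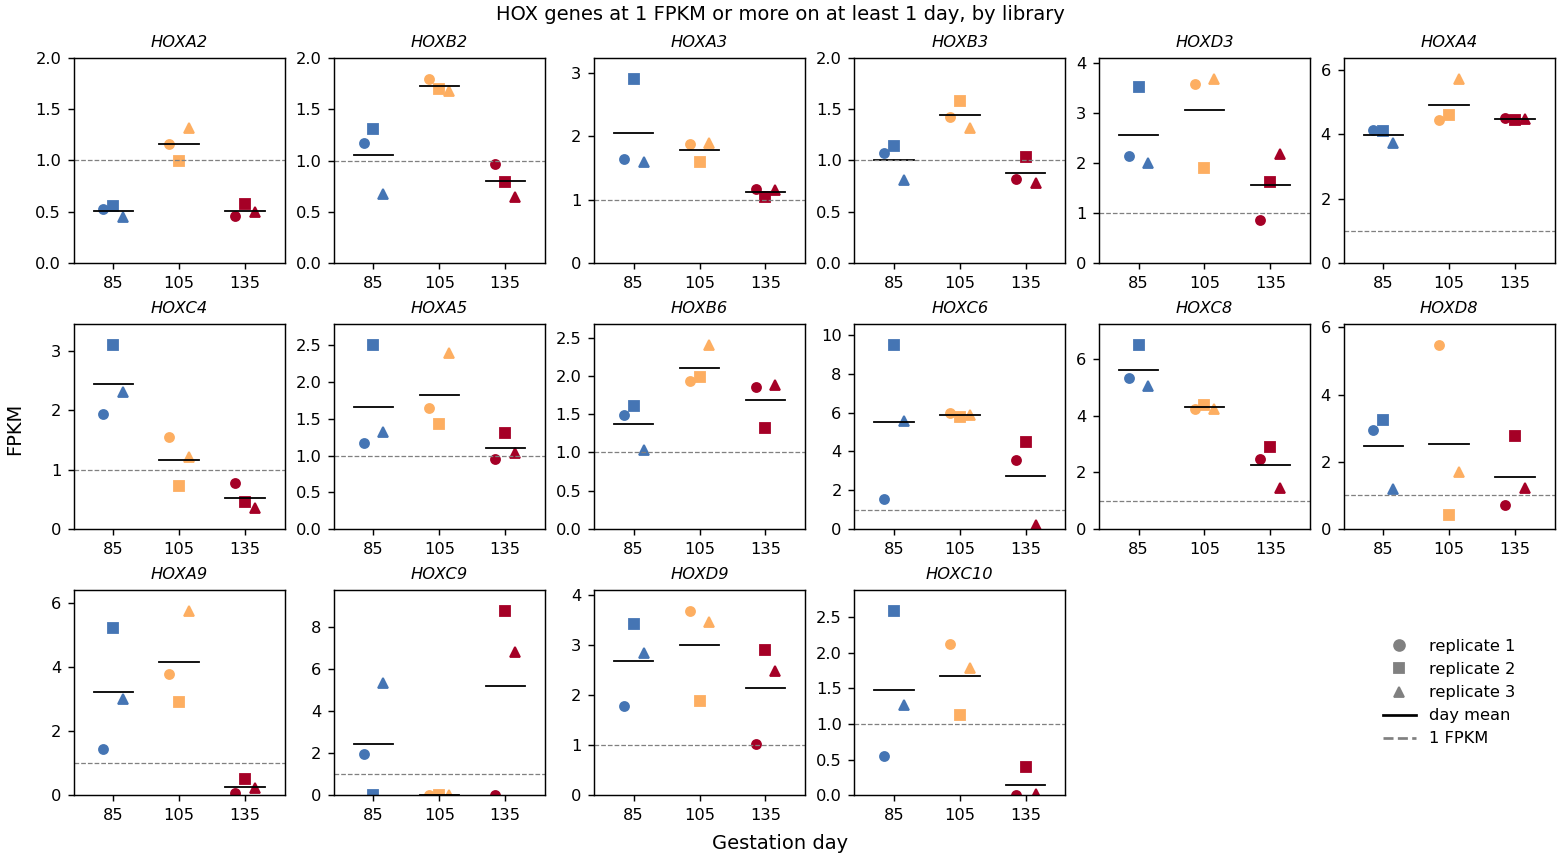
FPKM (vertical axes, linear, a scale per gene) by gestation day (horizontal axis) for HOX genes at 1 FPKM or more on at least 1 day; symbols are libraries, black lines day means and the dashed line is at 1 FPKM. HOXA9 and HOXC10 are below 1 FPKM in all 3 D135 libraries, and HOXC8 libraries do not overlap between days. For HOXC8, D105 against D85 was not called (limma adjusted p = 0.513). Its call for D135 against D105 was lost after median-of-ratios scaling (limma adjusted p = 0.171). Of all loci tested, 10.4% were lower without overlap at D105 than at D85, and 47.7% at D135 than at D105.

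By order of level, neighbouring genes were mostly not separated. At D85 HOXC8 and HOXC6 led with 5.63 ± 0.775 and 5.54 ± 3.99 FPKM, followed by HOXA4 with 3.99 ± 0.230 and HOXA9 with 3.22 ± 1.90 FPKM (SD, n = 3), and each gene's libraries overlapped those of the next. At D105 HOXC6 led with 5.87 ± 0.0978 FPKM and was clear of HOXA4 with 4.92 ± 0.708 FPKM, which was clear of HOXC8 with 4.30 ± 0.0879 FPKM. At D135 the kept HOXC9 locus had the highest mean, from its replicates 2 and 3 alone. HOXA4 came next with 4.48 ± 0.0447 FPKM, followed by HOXC6 with 2.75 ± 2.25 and HOXC8 with 2.27 ± 0.749 FPKM, each overlapping the next. FPKM is scaled by length, but comparison between genes stays limited. HOXA4 overlaps other HOX genes and may hold their reads, and the kept HOXC9 locus holds no reference transcript.

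Summed over paralog numbers in FPKM as deposited, D135 had the lowest mean in each set. Genes 1 to 3 summed to 9.02 ± 2.57, 10.9 ± 1.32 and 5.86 ± 0.322 FPKM at D85, D105 and D135 (SD, n = 3, 8 genes). Genes 4 to 8 summed to 24.9 ± 7.35, 25.0 ± 2.57 and 15.7 ± 3.50 FPKM (11 genes). Genes 9 to 13 without HOXC9 summed to 8.90 ± 4.78, 10.6 ± 2.65 and 3.04 ± 1.76 FPKM (12 genes). With the kept HOXC9 locus the last set had 11.3 ± 4.52, 10.6 ± 2.65 and 8.21 ± 6.29 FPKM. How far D135 lies below the other days thus depends on that locus. It also depends on scaling, since median-of-ratios size factors were 0.790 to 0.851 at D135 and 1.08 to 1.16 at D85 and D105. Rescaled sums are not given here.

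**Figure D3:**
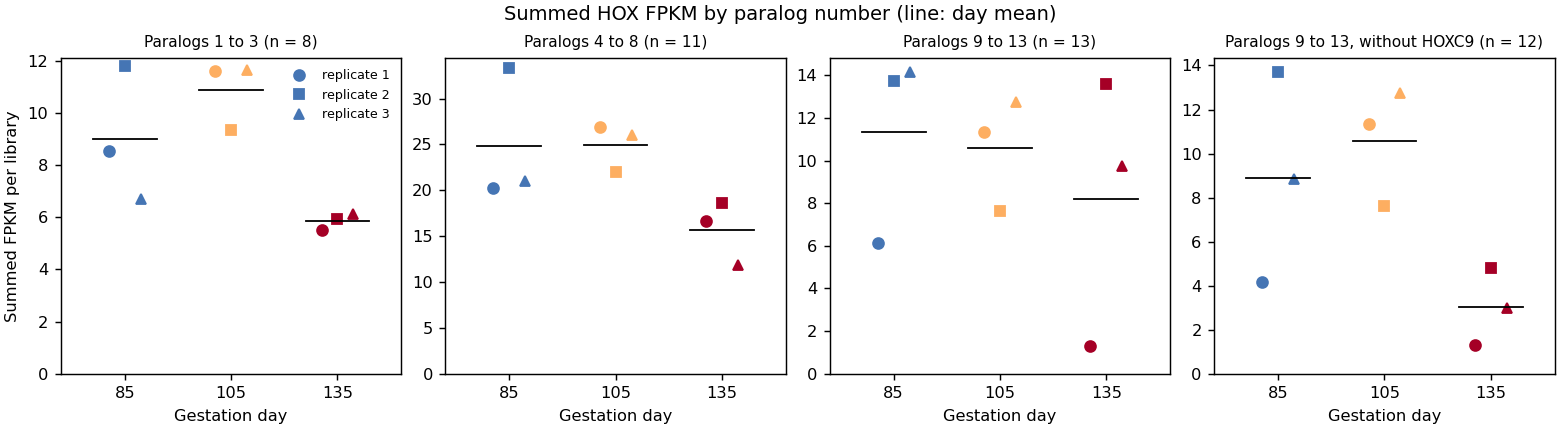
Summed FPKM of HOX genes per library (vertical axes, linear from 0) by gestation day for paralog numbers 1 to 3, 4 to 8 and 9 to 13, the last with and without HOXC9; symbols are libraries and lines day means. In genes 1 to 3 all D135 libraries lie below the others in FPKM as deposited, without rescaling. The nearest are D85 replicate 3 with 6.72 FPKM and D135 replicate 3 with 6.13 FPKM. Their median-of-ratios size factors were 1.08 and 0.816, and dividing by these reverses the order of this pair. Of all single loci tested, 47.7% were lower without overlap at D135 than at D105, and 48.8% than at D85. In genes 9 to 13 without HOXC9 D135 replicate 1 is lowest with 1.30 FPKM.

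Within a day, the tested HOX genes of paralog numbers 9 and 10 other than HOXC9 shared their highest and lowest library at D85 and D135. D85 replicate 2 was highest and replicate 1 lowest for HOXA9, HOXD9 and HOXC10, and at D135 replicate 2 was highest and replicate 1 lowest for the same 3 genes. Over the 16 genes at 1 FPKM or more on some day other than HOXC9, D85 replicate 2 was highest for 15. D105 replicate 2 was lowest for 11 of the 16, including HOXD8 and HOXC4. Size factors by median of ratios were 1.14, 1.16 and 1.08 in D85 replicates 1, 2 and 3, and 1.11, 1.12 and 1.10 at D105. How often these libraries were highest or lowest over all loci was not counted. Fibroblast markers summed to 3443, 2450 and 2214 FPKM in D85 replicates 1, 2 and 3, and to 1551, 2160 and 3476 FPKM in D135 replicates 1, 2 and 3. PDGFRA, a marker of that list, did not follow the sum at D135, with 25.7, 23.8 and 25.9 FPKM in replicates 1, 2 and 3. The part of fibroblast markers in these differences was not tested.

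The spread between libraries was wide for many HOX genes. The median coefficient of variation within a day was 32.4% at D85 and 37.3% at D135 over 16 tested HOX genes, against 15.4% and 15.5% over all 13086 loci tested. At D105 it was 14.4%, without HOXC9, against 15.6%. HOXA4 at D135 had 0.998% and HOXC6 at D105 1.66%, while HOXC10 had 168% at D135. Most HOX genes are low, and loci of like level were not compared.

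Of the 32 HOX genes 16 could be tested for change between days, and the others did not reach 1 FPKM in 3 libraries. HOXA9, HOXC10, HOXB2 and HOXC4 met that filter through D85 and D105 libraries alone, with every D135 library below 1 FPKM. Counts of falls and rises at D135 are therefore counts over a set chosen in part by high values on the earlier days. Tests used log2(FPKM + 1) with limma over all 13086 loci, with Benjamini-Hochberg adjustment. Fold changes on this scale understate those of low genes.

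Between D105 and D85, the earlier interval, 0 of 16 HOX genes passed, where 0.199% of all loci did (0.145% higher, 0.0535% lower), and none passed under any alternative setting. At an unadjusted p under 0.05 there were 5 HOX genes, HOXB2, HOXB3, HOXA4, HOXC4 and HOXB6, and 1611 loci in all. HOXC4 averaged 1.16 ± 0.420 FPKM at D105 and 2.45 ± 0.595 FPKM at D85, a log2 difference of -0.68 ± 0.20 SE (limma adjusted p = 0.222). HOXB2 averaged 1.72 ± 0.0673 FPKM at D105 and 1.05 ± 0.333 FPKM at D85, a log2 difference of 0.42 ± 0.14 SE (limma adjusted p = 0.296). The D105 and D85 libraries did not overlap for 6 tested genes: HOXB2, HOXB3, HOXA4 and HOXB6 were higher at D105, and HOXC4 and HOXC8 lower. Over all loci 8.0% were higher and 10.4% lower without overlap. The median log2 difference was 0.15 over the HOX genes and -0.02 over all loci. HOXA2, fitted without the filter on low values, had a log2 difference of 0.51 and a limma adjusted p of 0.0789.

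Between D135 and D105, HOXA9, HOXC10, HOXC8, HOXB2 and HOXB3 fell and none of the 16 rose. Of these, HOXA9, HOXC10 and HOXB2 had met the filter on low values through D85 and D105 libraries alone. In the same fit 39.5% of all loci passed, 35.0% lower and 4.47% higher, and the HOX genes did not pass more often than that. HOXA9 averaged 0.259 ± 0.220 FPKM at D135 and 4.15 ± 1.45 FPKM at D105 (SD, n = 3), a ratio of 16.0 between the means, D105 over D135. Its log2 change was -2.01 ± 0.34 SE (limma adjusted p = 0.00442). It passed under each of 17 alternative settings, with adjusted p up to 0.0159. HOXC10 had a log2 change of -1.24 ± 0.31 SE (limma adjusted p = 0.0164). That call was lost without D105 replicate 1 (adjusted p = 0.0530) and after quantile normalization (adjusted p = 0.0561). Fewer cells of a type and less RNA per cell cannot be told apart in bulk muscle. The summed muscle markers were higher and the summed neuron markers lower in each D135 library than in each D105 library, by the ranges given above. Single muscle markers did not all move with the sum. Of 11 tested, 3 were called higher and 1 lower, MYOD1 (log2 change -0.60, limma adjusted p = 0.0418). None of the neuron markers passed the filter on low values. Of all loci tested, 47.7% were lower and 6.43% higher without overlap. The part of these markers in the HOX changes was not tested.

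HOXC8 averaged 2.27 ± 0.749 FPKM at D135 and 4.30 ± 0.0879 FPKM at D105, with a log2 change of -0.72 ± 0.17 SE (limma adjusted p = 0.0143). HOXB2 averaged 0.801 ± 0.159 FPKM at D135 and 1.72 ± 0.0673 FPKM at D105, with a log2 change of -0.60 ± 0.14 SE (limma adjusted p = 0.0138). HOXB3 averaged 0.876 ± 0.139 FPKM at D135 and 1.44 ± 0.133 FPKM at D105, with a log2 change of -0.38 ± 0.12 SE (limma adjusted p = 0.0336). The median change over all loci was -0.33. After median-of-ratios scaling, which brings that median to 0, the adjusted p was 0.171 for HOXC8, 0.0942 for HOXB2 and 0.418 for HOXB3, and HOXA9 and HOXC10 alone passed, where 7.38% of all loci were lower and 10.4% higher. After quantile normalization HOXA9 alone passed, where 8.19% of all loci were lower and 7.53% higher. HOXB3 also lost its call in 5 of 9 fits that left out a library, with adjusted p up to 0.0948 without D135 replicate 3.

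In this interval 15 of 16 HOX genes had an estimate below 0, as did 78.5% of all loci. The median was -0.41 over the HOX genes and -0.33 over all loci, and 12 of the 16 lay below the median of all loci. After median-of-ratios scaling 13 of 16 were below 0, against 50.0% of all loci, with medians of -0.16 over the HOX genes and 0.00 over all loci, and HOXA4 and HOXB6 turned to estimates above 0. After quantile normalization 12 of 16 were below 0, against 54.1% of all loci, with medians of -0.10 and -0.04. Without overlap, 10 of the 16 were lower at D135, against 47.7% of all loci, and none higher, against 6.43%. The estimate above 0 was that of the kept HOXC9 locus, 2.08 with a 95% interval of -0.05 to 4.21 (limma adjusted p = 0.107). Without D135 replicate 1, in which that locus was listed at 0, its adjusted p was 0.0164. HOXA4 differed by -0.11 (95% interval -0.34 to 0.13), one of the narrowest intervals of the family. HOXC6 differed by -1.14, with an interval of -2.64 to 0.36 that its spread left wide. Without D105 replicate 2, whose connective tissue markers stood apart, 6 genes passed, all lower, and HOXC4 and HOXD3 were then among them (adjusted p = 0.0383 and 0.0392). In that fit 29.2% of all loci were lower and 4.3% higher.

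Among the 16 HOX genes left out by the filter, the fit of all loci without a filter found 2 lower at D135 than at D105 and none higher, where 20.4% of all loci were lower and 2.84% higher. HOXA2 averaged 0.508 ± 0.0627 FPKM at D135 and 1.16 ± 0.158 FPKM at D105, with a log2 change of -0.51 ± 0.08 SE (limma adjusted p = 0.00582). HOXB9, a thoracic gene, had 0.152, 0.287 and 0.245 FPKM in D135 replicates 1, 2 and 3 and 0.651, 0.882 and 0.406 FPKM at D105, a log2 change of -0.41 ± 0.11 SE (limma adjusted p = 0.0325). All D135 libraries lay below all D105 libraries for both genes. Against D85 in that fit, HOXB5 was lower at D135, with 0.127 ± 0.0285 FPKM against 0.397 ± 0.0929 FPKM at D85 and a log2 change of -0.31 ± 0.09 SE (limma adjusted p = 0.0427), where 25.4% of all loci were lower and 4.59% higher. The fit without a filter was not repeated with median-of-ratios scaling or quantile normalization. Whether the calls of HOXA2, HOXB9 and HOXB5 hold under those scalings is therefore not known.

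**Figure D4:**
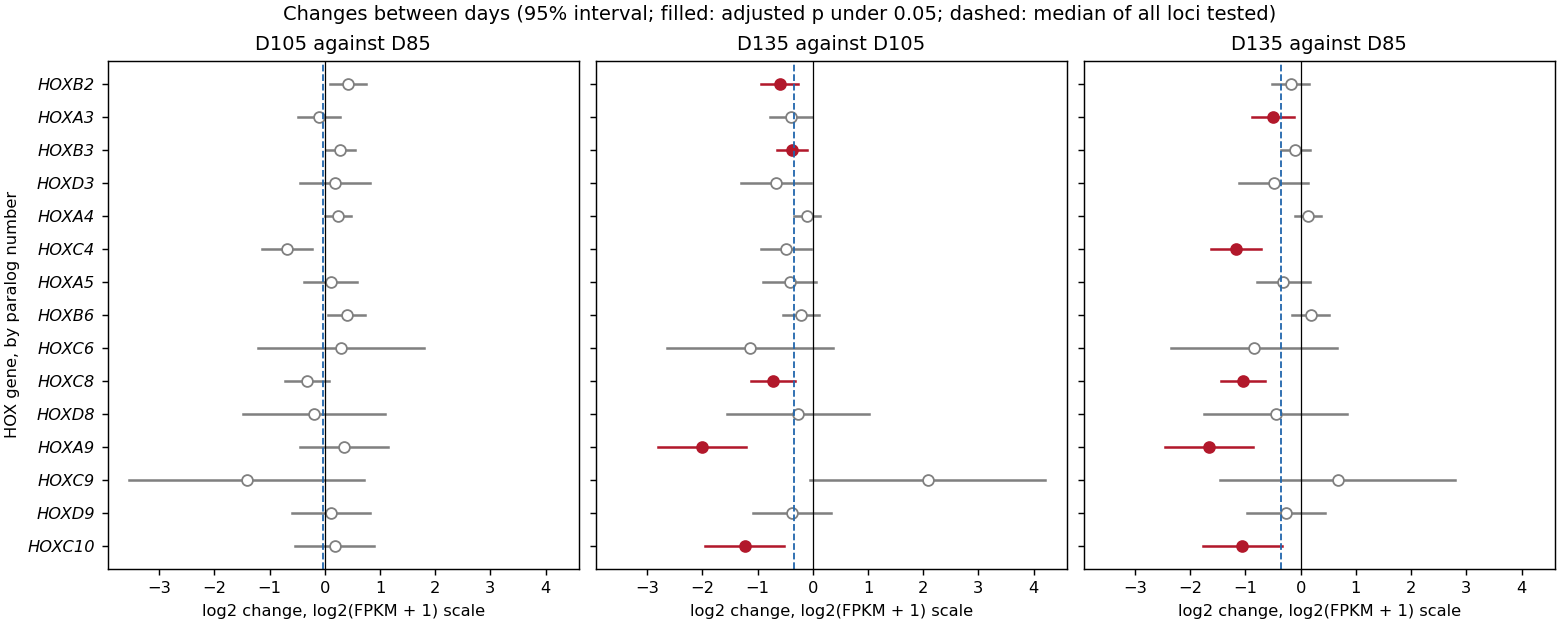
Log2 change of tested HOX genes (log2(FPKM + 1) scale, horizontal axes) between days, ordered by paralog number, with 95% intervals; filled symbols passed at adjusted p under 0.05 and the dashed line is the median of all loci tested. HOXA9 lies farthest below that line in both comparisons of D135; with median-of-ratios scaling HOXA4 and HOXB6 turn from below to above 0 in D135 against D105, and HOXB2, HOXB3 and HOXD9 in D135 against D85.

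Between D135 and D85, HOXA9, HOXC4, HOXC10, HOXC8 and HOXA3 fell and none rose, while 46.6% of all loci passed (39.7% lower, 6.90% higher). This comparison shares the D135 libraries with the one before. HOXA9, HOXC4 and HOXC10 had met the filter on low values through D85 and D105 libraries alone. HOXA9 averaged 0.259 ± 0.220 FPKM at D135 and 3.22 ± 1.90 FPKM at D85, a log2 change of -1.66 ± 0.34 SE (limma adjusted p = 0.00593). HOXC4 averaged 0.528 ± 0.219 FPKM at D135 and 2.45 ± 0.595 FPKM at D85, a log2 change of -1.17 ± 0.20 SE (limma adjusted p = 0.00232). HOXC8 averaged 2.27 ± 0.749 FPKM at D135 and 5.63 ± 0.775 FPKM at D85, a log2 change of -1.04 ± 0.17 SE (limma adjusted p = 0.00239). HOXA9, HOXC4 and HOXC8 passed under each of 17 alternatives, with adjusted p up to 0.0211, 0.0132 and 0.0233.

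The other calls against D85 were weaker. HOXC10 had a log2 change of -1.05 ± 0.31 SE (limma adjusted p = 0.0246), which was lost in 4 of 9 fits that left out a library, with adjusted p up to 0.0707 without D135 replicate 3. Median-of-ratios scaling and quantile normalization also ended it (adjusted p = 0.0563 and 0.0659). The joined HOXA3 locus averaged 1.12 ± 0.0740 FPKM at D135 and 2.05 ± 0.750 FPKM at D85, with a log2 change of -0.50 ± 0.17 SE (limma adjusted p = 0.0393). That call held in 6 of 17 alternatives and failed in 6 of 9 fits that left out a library, with adjusted p up to 0.103 without D135 replicate 2.

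HOXA4 and HOXB6 were the named loci with estimates above 0 against D85, beside the kept HOXC9 locus. HOXA4 averaged 4.48 ± 0.0447 FPKM at D135 and 3.99 ± 0.230 FPKM at D85, a log2 difference of 0.14 with a 95% interval of -0.10 to 0.38 (limma adjusted p = 0.310). HOXB6 averaged 1.68 ± 0.312 FPKM at D135 and 1.38 ± 0.303 FPKM at D85, a log2 difference of 0.18 with an interval of -0.15 to 0.51 (limma adjusted p = 0.338). Median-of-ratios scaling took both past the threshold as higher at D135 (limma adjusted p = 0.00764 for HOXA4 and 0.0333 for HOXB6). Under that scaling the split against D85 was 2 higher and 3 lower, in place of 0 higher and 5 lower, where 15.0% of all loci were higher and 12.8% lower. Quantile normalization gave the same split of counts, where 12.2% of all loci were higher and 14.8% lower. HOXD9 differed by -0.26 with an interval of -0.97 to 0.45, and by 0.06 after median-of-ratios scaling. Without overlap, 5 HOX genes were lower at D135 than at D85, against 48.8% of all loci, and HOXA4 was higher, against 9.42%. The median difference was -0.45 over the HOX genes and -0.35 over all loci.

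Over all 3 days by the moderated F test of limma, HOXA9, HOXC8, HOXC4, HOXC10 and HOXB2 passed, 5 of 16, against 43.2% of all loci.

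TALE homeobox genes, which include the DNA-binding partners of HOX proteins, were counted in the same fit. Of 10 tested, 6 fell between D135 and D105 and none rose, against 35.0% of all loci lower. After median-of-ratios scaling 1 fell, against 7.38% of all loci. TGIF1 fell by 0.99 on the log2 scale, MEIS3 by 0.92, MEIS1 by 0.73 and PBX3 by 0.67. MEIS1, one of the direct HOX partners, averaged 4.79 ± 0.0878 FPKM at D135 and 8.65 ± 1.22 FPKM at D105 (limma adjusted p = 0.00468). Against D85, 6 of 10 were lower at D135, against 39.7% of all loci, and 3 after that scaling, against 12.8%. TGIF1 fell by 1.07, PBX2 by 1.05, MEIS3 by 0.99 and MEIS1 by 0.93. None of the 10 passed between D105 and D85.

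Polycomb and trithorax proteins keep HOX clusters silent or active through cell division. Of 25 tested genes of this list, 12 were lower and none higher at D135 than at D105, against 35.0% of all loci lower. After median-of-ratios scaling 1 was lower and 2 higher, against 7.38% of all loci lower and 10.4% higher. CBX2, a reader of the Polycomb mark, averaged 2.65 ± 0.0777 FPKM at D135 and 6.71 ± 1.20 FPKM at D105, a log2 change of -1.07 (limma adjusted p = 0.00150). EZH2, the methyltransferase that writes that mark, had -0.996, PHF19 -0.79 and MEN1, of the trithorax-type MLL complexes, -0.77. Against D85, 17 were lower and 1 higher at D135, against 39.7% of all loci lower and 6.90% higher. After that scaling 4 were lower and 3 higher, against 12.8% and 15.0%. CBX2, EZH2, PHF19 and PHC1 changed most, EZH2 by -1.19. The gene that was higher, named after its values were seen, was KDM6A, a demethylase of the Polycomb mark, with a log2 change of 0.54. None of the 25 passed between D105 and D85.

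Retinoic acid and CDX proteins induce HOX genes along the embryonic axis. CDX1 and CDX4 stayed under 0.1 FPKM in every library. The list counted here also held GDF11, TGFBR1, CTCF and GMNN. GMNN was among the genes called lower at D135 than at D105 (limma adjusted p = 0.0427). Of 13 tested genes of this list, 6 were lower and none higher at D135 than at D105, against 35.0% of all loci lower, and 2 were lower after median-of-ratios scaling, against 7.38%. Against D85 7 were lower at D135, against 39.7% of all loci, and 3 after that scaling, against 12.8%. CRABP2 and CRABP1, which bind retinoic acid in the cell, changed by -1.30 each and ALDH1A2, which makes retinoic acid, by -0.65 on the log2 scale. Against D85 ALDH1A2 changed by -1.88, CRABP2 by -1.66 and CRABP1 by -1.15. Of 15 tested transcription factors of other positional families and muscle groups, 3 were lower at D135 than at D105 and none higher, against 35.0% of all loci lower. After median-of-ratios scaling 2 were lower and 2 higher, against 7.38% and 10.4% of all loci. The 3 genes lower before that scaling were MSC, a repressor of the myogenic programme (-2.48), PAX7 of satellite cells (-0.96) and SHOX2, a limb homeobox gene (-0.64). The same 3 genes were lower at D135 than at D85, with log2 changes of -3.19, -1.31 and -0.54, against 39.7% of all loci lower. Scaled by median of ratios, 2 genes of this list were lower and 3 higher against D85, where 12.8% of all loci were lower and 15.0% higher.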

How the data were processed

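The authors deposited a table of FPKM values per locus for 9 libraries, 3 per gestation day. The tools named per the submitters' processing notes are TopHat2, Bowtie2 and cutadapt. For the settings, genome build, assembler and strandedness no statement was found in those notes or the labels. The FPKM values were used as deposited. Loci holding several gene names (211 of 22605) kept their joined value. The HOX genes, lists and tests were chosen with earlier results of these data known.

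Loci with at least 1 FPKM in at least 3 libraries (13086) were transformed to log2(FPKM + 1). They were fitted by limma (version 3.58.1, under R 4.3.3) with day as group, all 9 libraries in the fit, a mean-variance trend, two-sided tests and Benjamini-Hochberg adjustment over all 13086 loci at a threshold of 0.05. The script was tested on simulated data. Levels were summarised with pandas 2.3.3. Read depth is unknown, so no counting intervals were given; errors are SDs over 3 libraries.

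Library values were given for each HOX gene with a day mean of at least 1 FPKM or called in any comparison. Of each other list, up to 4 called genes with the largest change were named per comparison. Some genes that enter the counts are not reported here by name. Alternatives were pseudocounts of 0.5 and 0.1, no filter, median-of-ratios scaling (size factors 0.790 to 1.16), quantile normalization, no trend, a replicate block, only the days compared, summed loci and leaving out each library. A filter at 0.5 FPKM and HOXC9 from its other locus were added after seeing the data.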

Additional observations from a re-analysis of the deposited data

How the results depend on the processing

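Of 771 values of single tested HOX genes reported here under the alternatives, 710 kept their direction and side of the threshold, 30 lost a call, 9 gained one and 22 changed sign, of which 0 passed the threshold. The cause was not tested. The number of HOX genes called between D135 and D105 was 5, with 2 after median-of-ratios scaling, 1 after quantile normalization and 3 to 6 when a library was left out (3 without D105 replicate 1). Between D135 and D85 it was 5, and 3 to 5 when a library was left out (3 without D85 replicate 2, D135 replicate 1 or D135 replicate 3). For any day it was 5, with 3 after either scaling, 3 to 6 when a library was left out and 8 with the filter at 0.5 FPKM. The labels do not say whether replicate numbers pair the libraries. Correlations of deviations were -0.0659 to 0.0605 for libraries of the same number and -0.0933 to 0.0520 for others. With 3 libraries per day these values cannot show that pairing is absent. With the replicate block the counts were 0, 5 and 4 for D105 against D85, D135 against D105 and D135 against D85, and 5 for any day.

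At 2 FPKM, 10 HOX genes were counted at D85, 8 at D105 and 5 at D135. At D135 16 were at 0.5 FPKM or more, and 5 were at 1 FPKM in every library. Leaving out a library gave 13 to 16 at D85, 16 to 17 at D105 and 8 to 11 at D135.

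Signs turned in these cases. Between D105 and D85, leaving out a library gave ranges of -0.21 to 0.089 for HOXA3, -0.036 to 0.32 for HOXA5, -0.28 to 0.75 for HOXC6, -0.77 to 0.33 for HOXD8, -0.074 to 0.34 for HOXD9 and -0.11 to 0.49 for HOXC10. Leaving out D85 replicate 1 turned HOXA5 (-0.027), HOXC6, HOXD9 and HOXC10, D85 replicate 2 HOXA3, D105 replicate 1 HOXD9 (-0.012), replicate 2 HOXD8 and replicate 3 HOXA5. Between D135 and D105, median-of-ratios scaling gave HOXA4 0.26 and HOXB6 0.069, and quantile normalization gave HOXA4 0.23, HOXB6 0.10 and HOXD8 0.053. HOXD8 lay between -0.79 and 0.32 when a library was left out, above 0 only without D105 replicate 1. Between D135 and D85, median-of-ratios scaling gave HOXB2 0.042, HOXB3 0.13 and HOXD9 0.060, and quantile normalization gave HOXB2 0.092, HOXB3 0.18 and HOXD9 0.067. When a library was left out HOXC9 lay between -0.035 (without D85 replicate 2) and 1.71, and HOXD9 between -0.45 and 0.028 (without D135 replicate 1).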

Other observations

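Non-coding loci lie inside the HOX clusters of the RefSeq table, and these were picked after their values were seen. LOC105614720, a long non-coding RNA of cluster C, had 0.340, 1.46 and 0.196 FPKM in D85 replicates 1, 2 and 3, 4.89, 3.31 and 5.72 FPKM at D105, and 1.05, 5.22 and 4.29 FPKM at D135. Its D105 libraries lay above all D85 libraries. Its log2 change between D135 and D85 was 1.37 ± 0.45 SE (limma adjusted p = 0.0374), and between D105 and D85 it was 1.81 ± 0.45 SE (limma adjusted p = 0.172). The locus of MIR10B in cluster D, joined with LOC105610367, had 7.07, 14.3 and 13.3 FPKM at D85, 11.7, 6.96 and 9.28 FPKM at D105, and 5.16, 9.02 and 6.83 FPKM at D135, with no call in any comparison.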
